A study of Mus musculus with 2 samples.

Results

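The chemokine ligand genes of the mouse genome were examined for Gata3 binding in TH2 cells. A gene was a member if GENCODE M21 lists it as protein-coding and its symbol is Ccl, Cxcl, Xcl or Cx3cl followed by a number, with or without a trailing letter. This rule found 37 of 21938 protein-coding genes on chromosomes 1 to 19, X and Y, and the region of each was its gene body plus 10 kb either side. Gata3 ChIP-seq was measured in 2 libraries of 1 condition, replicates 1 and 2 of TH2 cells expanded *in vitro*, with an antibody against Gata3 and tagmentation of the bound chromatin on beads. Libraries of input or IgG were not used here, and both libraries are of the same condition, so nothing was compared between treatments. In the labels the extraction protocol speaks of ILC2, although other fields speak of TH2 cells, and neither the labels nor the study's text gives the genotype of the mice for these libraries or says whether the replicates came from separate mice or cultures. The names of the deposited files carry CD4cre, and the study's methods list mice with Cre at Cd4, active in T cells, on a C57BL/6 background without tying them to these libraries. Enrichment of reads in Gata3 ChIP-seq was measured here, and expression of the genes was not. Without input or IgG, binding of Gata3 cannot be told apart from other enrichment of reads.

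Chemokines are small secreted proteins that direct the migration of cells carrying the matching G protein-coupled receptor. They are classed as CC, CXC, XC or CX3C by the spacing of their first cysteines, and many of their genes lie in tandem clusters that arose by duplication. TH2 cells are known for the receptors CCR4 and CCR8, whose ligands include *Ccl17*, *Ccl22* and *Ccl1*, and eosinophils for CCR3, the receptor of the eotaxins. TH1 cells are known for CXCR3, whose ligands are induced by interferon-γ. Gata3 is the transcription factor that directs TH2 differentiation and binds DNA at GATA sequences.

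Library 1 held 40504814 reads on these chromosomes and library 2 held 24959052, which is on average 2.97 and 1.83 reads in a 200-bp window. A peak was a run of 200-bp windows with more reads than the local background of the same library (exact Poisson test, one-sided, with a q of 0.01 by Benjamini-Hochberg over all windows of the genome with a read). The local background was the highest of the library mean and the means of the surrounding 5 and 10 kb, which include the peak's own reads, and the fold of a peak is its reads over this background. Peaks of both libraries that overlap are called shared, and 23806 were found in the genome. Summit values are reads in the 200-bp window and RPM (reads at the summit per 1000000 reads of the library), and as height the lower of both RPM values was taken. The identity of the cells was checked at marker genes: 6 of 6 T cell and TH2 genes (*Cd3e*, *Cd4*, *Gata3*, *Il4*, *Il5* and *Il13*) had a shared peak in the region, against 1 of 7 markers of B cells, myeloid cells, erythroid cells and mast cells (*Itgam*), beside 45.7% of all protein-coding genes. Several of these genes are also known from ILC2, and the counts do not tell TH2 cells from ILC2.

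Shared Gata3 peaks were found at 14 of the 37 members (37.8%), beside 45.7% of all protein-coding genes. Member regions were shorter than those of all genes, with a median of 23.5 kb against 37.4 kb. Pooled over all regions, members held 2.23 shared peaks per 100 kb against 1.35, where a peak counts once for each gene region that holds it. The flank is the same for every gene and so makes up more of a short region, and these densities are not of like stretches. Within 2 kb of the annotated start, a window of equal length for every gene, 6 members (16.2%) had a shared peak, beside 11.7% of all genes. The corresponding share within 10 kb of the start was 27% (10 members), beside 28.9%. At 4 members no read was found in either library, and among the 33 others the share with a shared peak was 42.4%, beside 47.2% of genes with a read. Of the 14 members, 7 had 1 shared peak, 5 had 2, *Cxcl9* had 3 and *Ccl1* had 4. In all, 22 shared peaks lay in member regions, 2 of them in the regions of a pair of neighbouring members. At 9 further members (24.3%, beside 29.2% of all genes) a peak was called in 1 or both libraries without overlap. At 14 members (37.8%, beside 25.1% of all genes), the 4 without reads included, no peak was called in either library. Among members with a shared peak, *Ccl1*, *Ccl28*, *Cxcl5*, *Cxcl9*, *Cxcl10* and *Cxcl17* also had peaks of library 1 alone, with 16 to 33 reads in library 1 and 5 to 15 in library 2 at the same place.

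**Figure D1:**
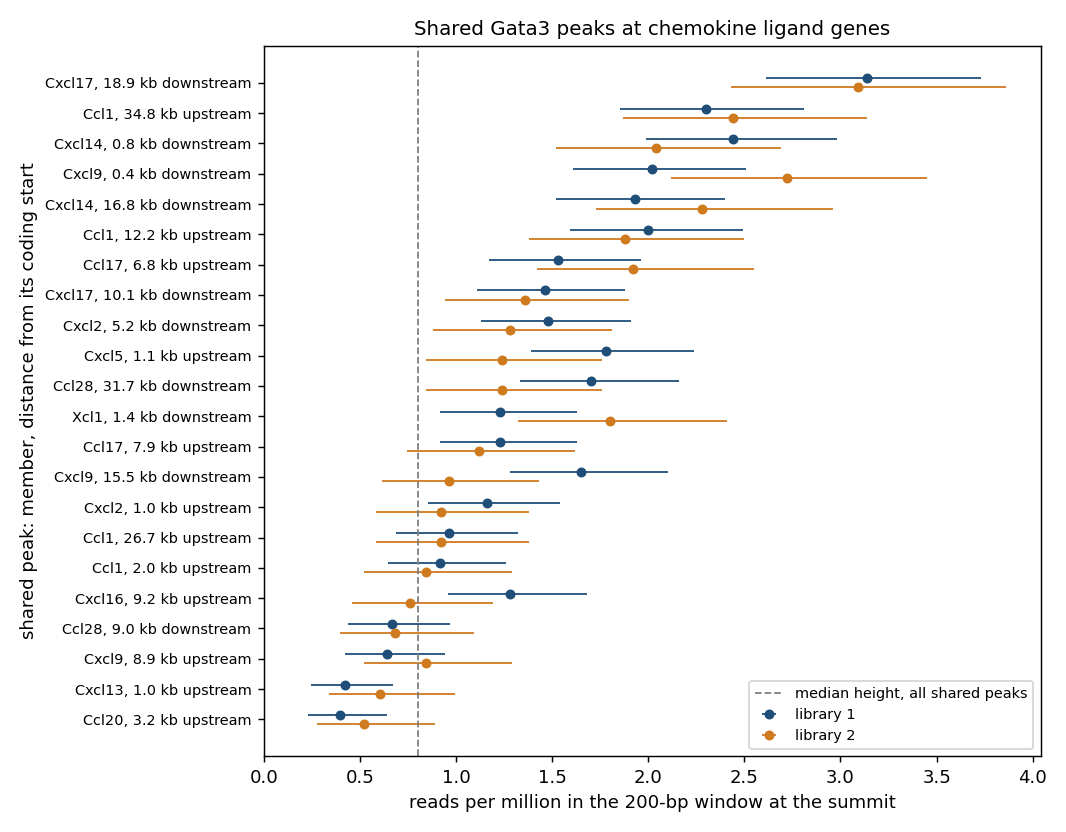
RPM at the summit of each of the 22 shared peaks in member regions (points, 95% exact Poisson interval of the count as bars, library 1 in blue and library 2 in orange), ordered by height and labelled by the closest member and the distance from its coding start. The peak downstream of *Cxcl17* is the tallest, at 3.14 and 3.09 RPM, and 17 of the 22 exceed the median height of all shared peaks, 0.801 RPM (dashed line).

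The member peaks had a median height of 1.24 RPM, against 0.801 RPM over all shared peaks, and ranged from the 3.13th to the 96.9th percentile of height. Intervals given for single libraries are 95% exact Poisson intervals and cover counting error only. The receptor genes of the pathway formed a list of 22 typical and atypical chemokine receptors. Of these 18 had a shared peak in the region (45.7% of all genes), 13 within 10 kb of the start (28.9% of all genes) and 4 within 2 kb (11.7% of all genes). *Ackr1*, *Ackr3*, *Ccr10* and *Cxcr2* had none in the region. *Pf4* and *Ppbp*, chemokine genes of the *Cxcl5* cluster that do not follow the naming rule, had none either.

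*Ccl17*, a ligand of CCR4, carried a pair of shared peaks upstream of its start. The gene lies on the plus strand at chr8:94810453-94812036, and both summits were intergenic. The closer summit, 6.8 kb upstream, held 62 reads (1.53 RPM, interval 1.17 to 1.96) in library 1 and 48 reads (1.92 RPM, 1.42 to 2.55) in library 2, at 4.68 and 4.98 times the background. At the farther one, 7.9 kb upstream, there were 50 reads (1.23 RPM) and 28 reads (1.12 RPM), at 3.72 and 2.95 times the background, so neither passed a threshold of 5-fold in both libraries. These summits stood at the 83.2nd and 70.7th percentile of all shared peaks, and no peak was called at the *Ccl17* start itself, where the highest window within 2 kb held 10 reads in both libraries. The sequences at both summits are shown because they differ in their motifs. Bases in capitals are the Gata3 motif (A or T, then GATA, then A or G, on either strand) or the AP-1 motif (TGACTCA on either strand), the site of Fos and Jun factors, within 100 bp of the summit. Sequences are read from the plus strand of GRCm38.p6 as held by RefSeq, so a motif on the minus strand appears as its reverse complement.
*Ccl17*, 6.8 kb upstream, chr8:94803550-94803750, plus strand: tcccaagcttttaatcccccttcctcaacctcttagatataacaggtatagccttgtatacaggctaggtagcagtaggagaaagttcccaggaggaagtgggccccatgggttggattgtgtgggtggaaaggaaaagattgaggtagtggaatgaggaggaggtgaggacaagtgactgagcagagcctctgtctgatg
*Ccl17*, 7.9 kb upstream, chr8:94802450-94802650, plus strand: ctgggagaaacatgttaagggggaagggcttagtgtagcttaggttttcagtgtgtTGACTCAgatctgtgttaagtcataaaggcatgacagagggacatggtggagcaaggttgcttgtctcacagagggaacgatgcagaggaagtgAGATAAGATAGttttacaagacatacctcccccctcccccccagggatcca
The taller of these summits held neither motif. In the lower one, AGATAA began 50 bp and AGATAG 55 bp to the right of the summit, sharing 1 base, and TGACTCA began 44 bp to its left.

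The other CCR4 ligand, *Ccl22*, has its start 57 kb from the nearest of these summits, and its region held no peak in either library. Its highest window held 16 reads in library 1 and 9 in library 2. *Cx3cl1*, the ligand of CX3CR1, lies between *Ccl22* and *Ccl17*, and its highest window held 17 and 10 reads, again without a call. In this cluster of 3 genes, Gata3 peaks were therefore found beside 1 gene, and the closest summit to the *Cx3cl1* body was 20.1 kb away. A peak would have needed between 12 and 23 reads in library 1 and between 10 and 17 in library 2 at the median local background of the 33 members with reads. That is a median of 3.44 and 4.62 times the background, but the fold needed falls where the local background is higher, and shared peaks of members were called down to 2.95 times. The window of 16 reads at *Ccl22* stood over a background of 5.6 reads, above the median of 4.44 in its region, and was not called.

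*Ccl1*, a ligand of CCR8, had the most shared peaks of any member. Its coding transcripts lie on the minus strand of chr11 from 82176657 to 82179812, but 1 non-coding transcript extends the annotated gene to 82305690, and 4 shared summits lay within that extension. Measured from the coding start, all 4 were upstream, at 1.99, 12.2, 26.7 and 34.8 kb. The summit 34.8 kb upstream was the tallest, with 93 reads (2.3 RPM, interval 1.85 to 2.81) in library 1 and 61 reads (2.44 RPM, 1.87 to 3.14) in library 2. At 12.2 kb the libraries held 81 reads (2 RPM, 1.59 to 2.49) and 47 reads (1.88 RPM, 1.38 to 2.5). The reads rose to 5.55 and 6.38 times the background at the first, and to 6.55 and 5.85 times at the second. The remaining summits were lower, with 39 and 23 reads at 26.7 kb and 37 and 21 reads at 1.99 kb. With gene models from coding transcripts alone, only the lowest of the 4, at the 53.8th percentile of height, stayed within 10 kb of *Ccl1*. The sequence of the tallest summit is shown because its Gata3 motif lies at the summit itself.
*Ccl1*, 34.8 kb upstream, chr11:82214500-82214700, plus strand: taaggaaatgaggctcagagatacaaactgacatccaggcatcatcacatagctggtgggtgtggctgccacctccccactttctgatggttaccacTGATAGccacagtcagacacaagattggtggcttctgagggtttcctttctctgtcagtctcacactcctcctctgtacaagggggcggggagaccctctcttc
TGATAG began 3 bp to the left of that summit. The summits at 26.7 and 1.99 kb also held the Gata3 motif. At 26.7 kb AGATAA began 45 bp to the left and AGATAG 16 bp to the right, both on the minus strand, and at 1.99 kb AGATAA began 73 bp to the left. At 12.2 kb neither motif was found within 100 bp.

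**Figure D2:**
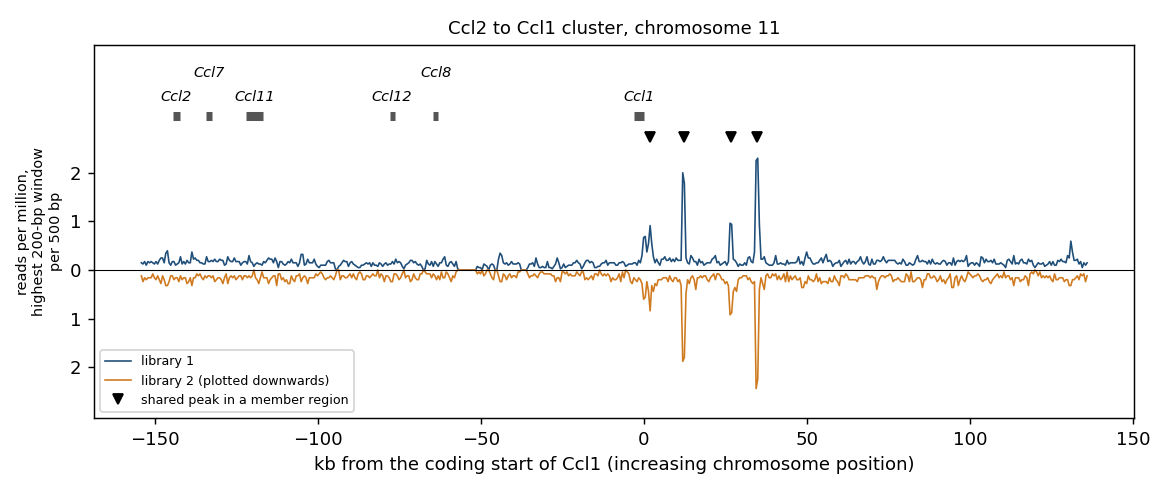
Highest 200-bp window per 500 bp in RPM across the *Ccl2* to *Ccl1* cluster, library 1 upwards and library 2 downwards, against distance from the coding start of *Ccl1*. Bars mark gene bodies of coding transcripts and triangles the 4 shared peaks, which all lie to the right of *Ccl1*. No shared peak lies over the 5 other genes.

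*Ccl1* closes a cluster of 6 CC genes that holds the ligands of CCR2 (*Ccl2*, *Ccl7* and *Ccl12*, which recruit monocytes), the eotaxin *Ccl11* and *Ccl8*, a CCR8 ligand in the mouse. None of these 5 had a peak in either library. Their highest windows held between 9 and 16 reads in library 1 and between 6 and 8 in library 2. The nearest shared summit to each was the one 1.99 kb upstream of *Ccl1*, 65 kb from the body of *Ccl8* and 144 kb from that of *Ccl2*. Over all genes the median distance from a gene body to the nearest shared summit was 14.1 kb, and over the members 22.6 kb. A summit inside the gene body counts as no distance, and members are shorter, with a median of 3.5 kb against 17.4 kb. The member median also includes the 4 genes without reads, 268 to 529 kb from a shared summit. Read density at *Ccl8* was low, 0.302 and 0.26 RPM per kb, and 20.9% of the 50-base stretches of its region occur elsewhere in the genome, beside 0.801% at *Ccl2*.

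The eotaxins, ligands of the eosinophil receptor CCR3, had no shared peak. At *Ccl11* the highest windows held 12 and 8 reads. *Ccl26* and *Ccl24* lie side by side on chromosome 5, and 1 peak of library 1 alone fell in both regions, 1.57 kb downstream of the *Ccl26* start. It held 24 reads (0.593 RPM) in library 1, at 4.58 times the background, and 6 reads (0.24 RPM) in library 2. The nearest shared summit lay 16.6 kb from the body of *Ccl26*, with 58 and 26 reads, nearest to the start of *Hip1*.

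The inflammatory CC chemokines of T cells and macrophages gave no shared peak within 10 kb either. *Ccl5*, *Ccl9*, *Ccl6*, *Ccl3* and *Ccl4* form a cluster of 159 kb on chromosome 11. Its 1 shared summit lay 19.8 kb upstream of *Ccl5*, the gene of the T cell chemokine RANTES, with 82 reads (2.02 RPM) in library 1 and 52 reads (2.08 RPM) in library 2. This summit, at the 90.5th percentile of height, rose to 6.21 and 6.05 times the background and lay outside the 10-kb limit. Nearer to *Ccl5* each library had a peak, but the peaks did not overlap. Library 1 had 42 reads (1.04 RPM) 2.38 kb upstream of the start, where library 2 had 16 (0.641 RPM). Library 2 had 22 reads (0.881 RPM) 618 bp downstream of the start, where library 1 had 8 (0.198 RPM).

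*Ccl3*, which encodes the macrophage inflammatory protein MIP-1α, also had a peak in each library without overlap, both downstream of its start. Library 1 had 37 reads (0.913 RPM) at 8.51 kb, where library 2 had 11 (0.441 RPM). Library 2 had 20 reads (0.801 RPM) at 7.96 kb, where library 1 also had 20 (0.494 RPM). At *Ccl4* (MIP-1β), 26 reads 11.5 kb downstream of the start were called in library 1, with 2 reads there in library 2. *Ccl6*, a CCR1 ligand, had 17 reads in library 1 at 2.61 kb upstream, with 4 in library 2. Its neighbour *Ccl9* had no peak in either library.

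**Figure D3:**
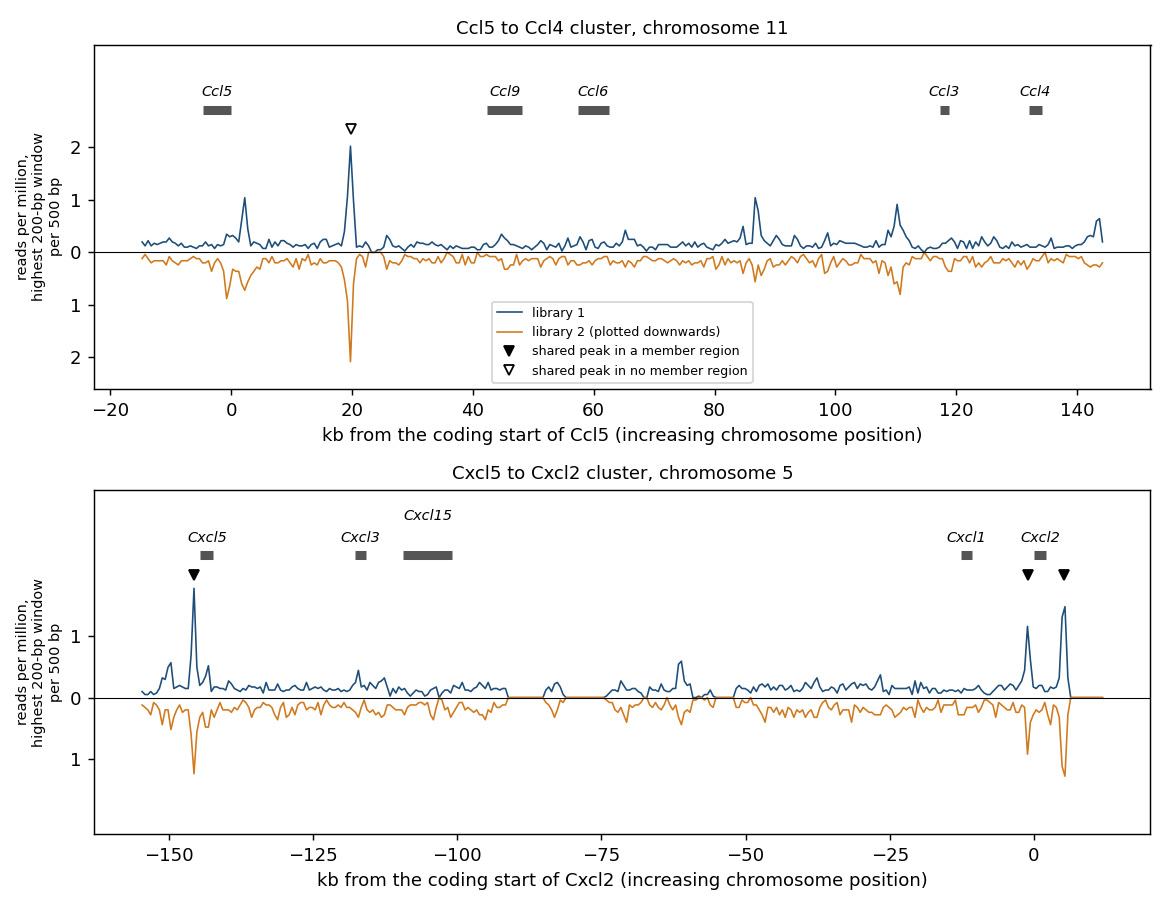
The same plot for the *Ccl5* to *Ccl4* cluster (top, distance from the *Ccl5* coding start) and the *Cxcl5* to *Cxcl2* cluster (bottom, distance from the *Cxcl2* start). Filled triangles are shared peaks in a member region and the open triangle is the shared peak 19.8 kb from *Ccl5*. In the lower plot the shared peaks sit at both ends of the cluster, and stretches at 0 have no reads in either library.

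The ligands of CXCR2, which attract neutrophils, had 3 shared peaks, at the outer ends of their cluster on chromosome 5. *Cxcl5* (chr5:90759360-90761624, plus strand) had a summit 1060 bp upstream of its start. Library 1 held 72 reads there (1.78 RPM, interval 1.39 to 2.24) and library 2 held 31 (1.24 RPM, 0.844 to 1.76), at 5.86 and 4.35 times the background. *Cxcl2* (chr5:90903871-90905938, plus strand) had 1 summit on each side. Upstream, 971 bp from the start, there were 47 and 23 reads (1.16 and 0.922 RPM), and this peak also fell in the region of *Cxcl1*. Downstream, 5.23 kb from the start, there were 60 reads (1.48 RPM, 1.13 to 1.91) and 32 reads (1.28 RPM, 0.877 to 1.81), at 6.58 and 6.45 times the background. Beyond that summit the reads ended: 30.6% of the 200-bp bins of the *Cxcl2* region had no read in either library and 26.4% of its 50-base stretches have another copy. Empty bins lower the local mean, so the fold is higher for the same number of reads. The sequences of the summits beside *Cxcl5* and downstream of *Cxcl2* are shown because both hold Gata3 and AP-1 motifs.
*Cxcl5*, 1.06 kb upstream, chr5:90758200-90758400, plus strand: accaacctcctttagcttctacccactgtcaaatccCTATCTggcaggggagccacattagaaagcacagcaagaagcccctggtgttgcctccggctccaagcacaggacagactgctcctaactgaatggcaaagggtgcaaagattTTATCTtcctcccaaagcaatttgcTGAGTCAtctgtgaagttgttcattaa
*Cxcl2*, 5.23 kb downstream, chr5:90909000-90909200, plus strand: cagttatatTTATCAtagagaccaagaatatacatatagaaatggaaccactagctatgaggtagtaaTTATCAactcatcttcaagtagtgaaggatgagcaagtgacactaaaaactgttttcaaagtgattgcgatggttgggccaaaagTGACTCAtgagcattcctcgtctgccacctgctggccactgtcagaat
Beside *Cxcl5*, the motifs were AGATAG beginning 64 bp to the left of the summit, AGATAA 49 bp to its right and TGAGTCA 74 bp to its right. Downstream of *Cxcl2*, TGATAA began 91 and 32 bp to the left and TGACTCA 53 bp to the right. The summit upstream of *Cxcl2* held neither motif.

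Between these ends, *Cxcl3* and *Cxcl15* had no shared peak. A peak of library 1 alone lay 647 bp downstream of the *Cxcl3* start, in the regions of both genes, with 18 reads in library 1 and 8 in library 2. *Cxcl1* had no peak other than the one it shares with *Cxcl2*, 9.79 kb past its end.

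*Cxcl9* and *Cxcl10* encode the interferon-γ-induced ligands of CXCR3 and lie next to each other on chromosome 5. At *Cxcl9* (chr5:92321347-92328079, minus strand) a shared summit lay in an intron, 429 bp downstream of the start. Library 1 held 82 reads (2.02 RPM, interval 1.61 to 2.51) and library 2 held 68 (2.72 RPM, 2.12 to 3.45), at 6.35 and 5.36 times the background. At the 90.5th percentile of height, it was the member summit closest to a start. The summits of the 2 libraries were 150 bp apart, the largest distance among the member peaks. A Gata3 motif, TGATAA on the minus strand, began 97 bp to the left of the library 1 summit. Lower summits lay on either side of the gene. The one 15.5 kb downstream of the start held 67 reads in library 1 and 24 in library 2 and was nearest to the start of *Sdad1*. The other, 8.92 kb upstream, held 26 and 21 reads in an intron of *Art3* and was the only shared peak in the region of *Cxcl10*. *Cxcl10* also had peaks of library 1 alone 5.39 kb downstream and 7.26 kb upstream of its start, with 16 and 22 reads, where library 2 held 8 reads each. *Cxcl11*, the other CXCR3 ligand, is not a protein-coding gene in this annotation and was not counted.

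Among the chemokines of mucosal and lymphoid tissue, *Ccl28*, *Ccl20* and *Cxcl13* had shared peaks. *Ccl28*, a mucosal ligand of CCR10 (chr13:119623819-119654359, plus strand), had a summit 31.7 kb downstream of its start, just past its end, with 69 reads (1.7 RPM, interval 1.33 to 2.16) and 31 reads (1.24 RPM, 0.844 to 1.76). A second, intronic summit at 8.98 kb held 27 and 17 reads. *Cxcl13*, which draws B cells through CXCR5, had 17 and 15 reads 1001 bp upstream of its start. *Ccl20*, the ligand of CCR6, had 16 and 13 reads 3.22 kb upstream. These last were the lowest shared peaks of the members, at the 5.06th and 3.13th percentile, and both were lost when library 1 was thinned to the depth of library 2. The sequence at the taller *Ccl28* summit is shown for its single Gata3 motif, 20 bp to the right of the summit.
*Ccl28*, 31.7 kb downstream, chr13:119655450-119655650, plus strand: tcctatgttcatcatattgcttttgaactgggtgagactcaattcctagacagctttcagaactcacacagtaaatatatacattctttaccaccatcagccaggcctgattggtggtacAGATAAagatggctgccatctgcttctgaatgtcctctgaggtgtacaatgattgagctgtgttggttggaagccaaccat
The stromal chemokine *Cxcl12*, ligand of CXCR4, had no peak in either library and was 262 kb from the nearest shared summit, with 13 and 8 reads in its highest windows. *Ccl25*, the gut and thymus ligand of CCR9, had no shared peak within 10 kb. A shared summit with 42 and 27 reads lay 11.5 kb upstream of its body, and library 1 alone had peaks 6.16 kb upstream and 44.7 kb downstream of its start.

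The ligands of CCR7, *Ccl19*, *Ccl21a* and *Ccl21b*, which guide T cells and dendritic cells into lymph nodes, could not be measured, nor could *Ccl27b*. Over their regions both libraries held 0 reads, and all 200-bp bins were empty. Of the 50-base stretches of these regions, 100% at *Ccl19*, *Ccl21a* and *Ccl27b* and 99.9% at *Ccl21b* have another copy in the C57BL/6J reference, counting its chromosomes and unplaced contigs. The deposited reads are those with a unique position. At *Ccl27a*, the skin ligand of CCR10, 44.1% of stretches have a copy, 65.6% of bins were empty and the density was 0.117 and 0.115 RPM per kb, the lowest of the 33 members with reads. No statement on Gata3 binding can be made for the 4 genes without reads, and 3.2% of all protein-coding genes had no read in the same way.

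**Figure D4:**
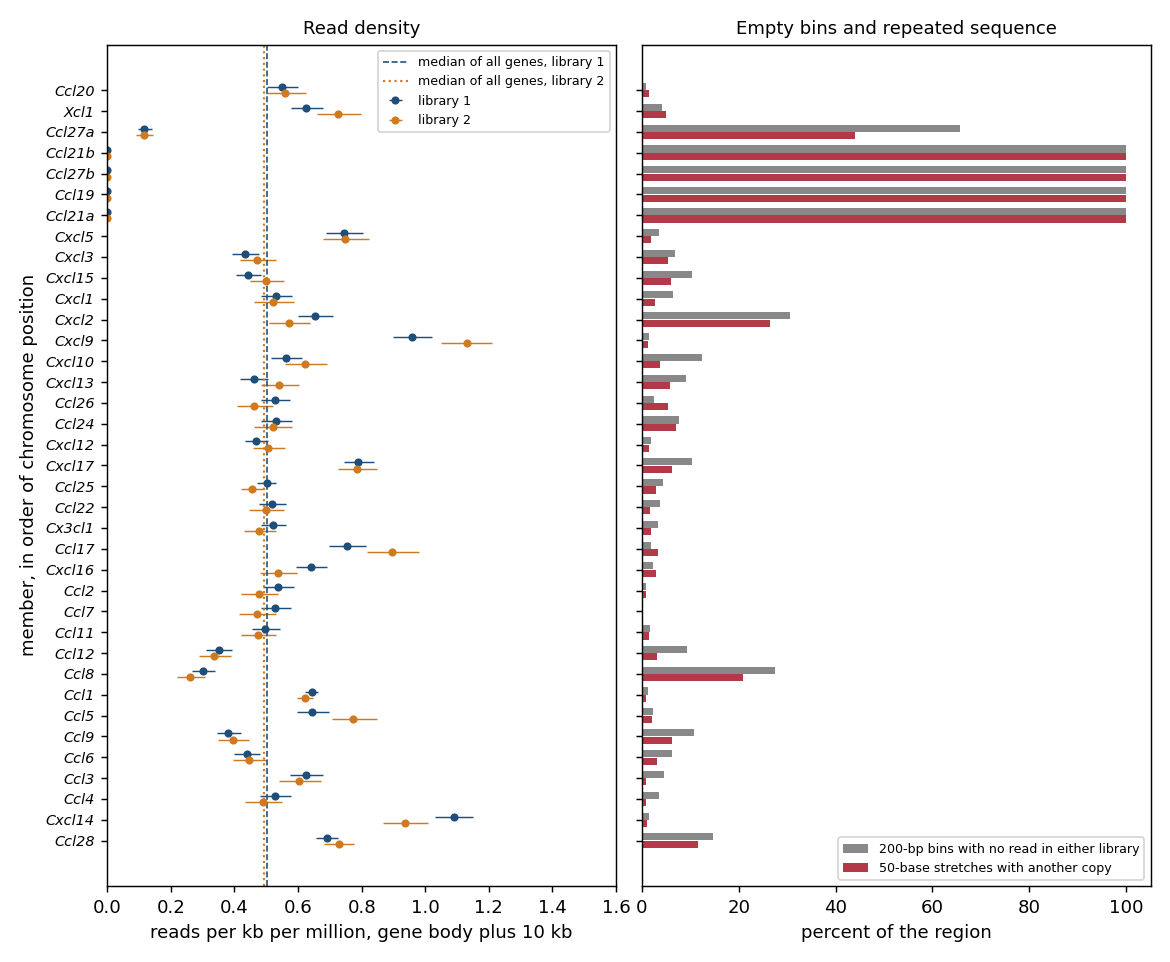
Left, RPM per kb over each member's gene body plus 10 kb (points, 95% exact Poisson interval of the count, mostly narrow), with the medians of all genes as lines. Right, the percent of 200-bp bins with no read in either library and of 50-base stretches with another copy. The 4 members at 0 are those whose region is repeated elsewhere almost throughout, while *Cxcl9* and *Cxcl14* have the highest densities.

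The read density over the member regions had a median near that of all genes. Its median over members was 0.527 RPM per kb in library 1 and 0.5 in library 2, against 0.501 and 0.493 over all genes. Of the 37 members, 15 fell below the median gene, the 4 without reads included. *Cxcl9* had 0.958 and 1.13, and *Cxcl14* had 1.09 and 0.936, at the 98.6th and 98.3rd percentile of all genes. With empty bins left out, the member medians were 0.535 and 0.513, against 0.536 and 0.527 over all genes.

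*Cxcl14*, an epithelial chemokine whose receptor is debated, had 2 of the 5 tallest member peaks (chr13:56288643-56296551, minus strand). In its intron, 751 bp downstream of the start, library 1 held 99 reads (2.44 RPM, interval 1.99 to 2.98) and library 2 held 51 (2.04 RPM, 1.52 to 2.69). Past the end of the gene, 16.8 kb downstream of the start, there were 78 reads (1.93 RPM, 1.52 to 2.4) and 57 reads (2.28 RPM, 1.73 to 2.96). Library 1 was thus higher at the first and library 2 at the second, with overlapping intervals at both. The folds were 4.82 and 5.43 at the intronic summit and 5.72 and 7.02 at the distal one. Both sequences are shown because each holds a single Gata3 motif near the summit.
*Cxcl14*, 0.751 kb downstream, chr13:56295700-56295900, plus strand: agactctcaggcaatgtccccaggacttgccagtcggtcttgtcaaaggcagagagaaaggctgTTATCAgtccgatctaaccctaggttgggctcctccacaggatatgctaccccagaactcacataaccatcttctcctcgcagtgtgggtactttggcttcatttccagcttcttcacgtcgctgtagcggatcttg
*Cxcl14*, 16.8 kb downstream, chr13:56279700-56279900, plus strand: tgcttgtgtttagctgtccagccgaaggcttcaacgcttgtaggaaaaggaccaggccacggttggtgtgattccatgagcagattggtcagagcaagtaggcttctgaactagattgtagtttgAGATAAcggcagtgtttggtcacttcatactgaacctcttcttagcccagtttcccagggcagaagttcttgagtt
TGATAA on the minus strand began 36 bp to the left of the intronic summit and AGATAA 25 bp to the right of the distal one.

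*Cxcl17*, another mucosal chemokine of debated receptor (chr7:25400053-25412886, minus strand), had the tallest peak of any member region. It held 127 reads (3.14 RPM, interval 2.61 to 3.73) in library 1 and 77 reads (3.09 RPM, 2.43 to 3.86) in library 2, at 6.67 and 5.66 times the background. That summit lay 18.9 kb downstream of the *Cxcl17* start, in an intron of *Lipe*, the gene of hormone-sensitive lipase, and was 4.71 kb from the start of *Lipe*. It held neither motif within 100 bp. The second summit, in an intron of *Cxcl17* 10.1 kb downstream of its start, was also closer to the start of *Lipe*, at 4.09 kb. It had 59 reads (1.46 RPM, 1.11 to 1.88) and 34 reads (1.36 RPM, 0.943 to 1.9), at 6.7 and 7.8 times the background. Its sequence is shown as one of the 4 with both motifs.
*Cxcl17*, 10.1 kb downstream, chr7:25402700-25402900, plus strand: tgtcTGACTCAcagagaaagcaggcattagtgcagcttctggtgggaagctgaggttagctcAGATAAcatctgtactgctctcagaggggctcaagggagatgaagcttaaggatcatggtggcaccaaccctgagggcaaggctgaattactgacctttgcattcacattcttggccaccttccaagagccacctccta
AGATAA began 38 bp and TGACTCA 96 bp to the left of this summit. A peak of library 1 alone lay nearer to the *Cxcl17* start, 1.54 kb downstream, with 21 reads against 5 in library 2.

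*Xcl1*, the lymphotactin gene that activated T cells are known to express (chr1:164931644-164935527, minus strand), had an intronic summit 1.43 kb downstream of its start. Library 1 held 50 reads (1.23 RPM, interval 0.916 to 1.63) and library 2 held 45 (1.8 RPM, 1.32 to 2.41), at 5.14 and 6.15 times the background, and neither motif was found there. *Cxcl16*, the ligand of CXCR6 (chr11:70453983-70459984, minus strand), had a summit 9.22 kb upstream with 52 and 19 reads (1.28 and 0.761 RPM). This was one of the member peaks with the largest gap between libraries, and it also lacked both motifs.

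**Figure D5:**
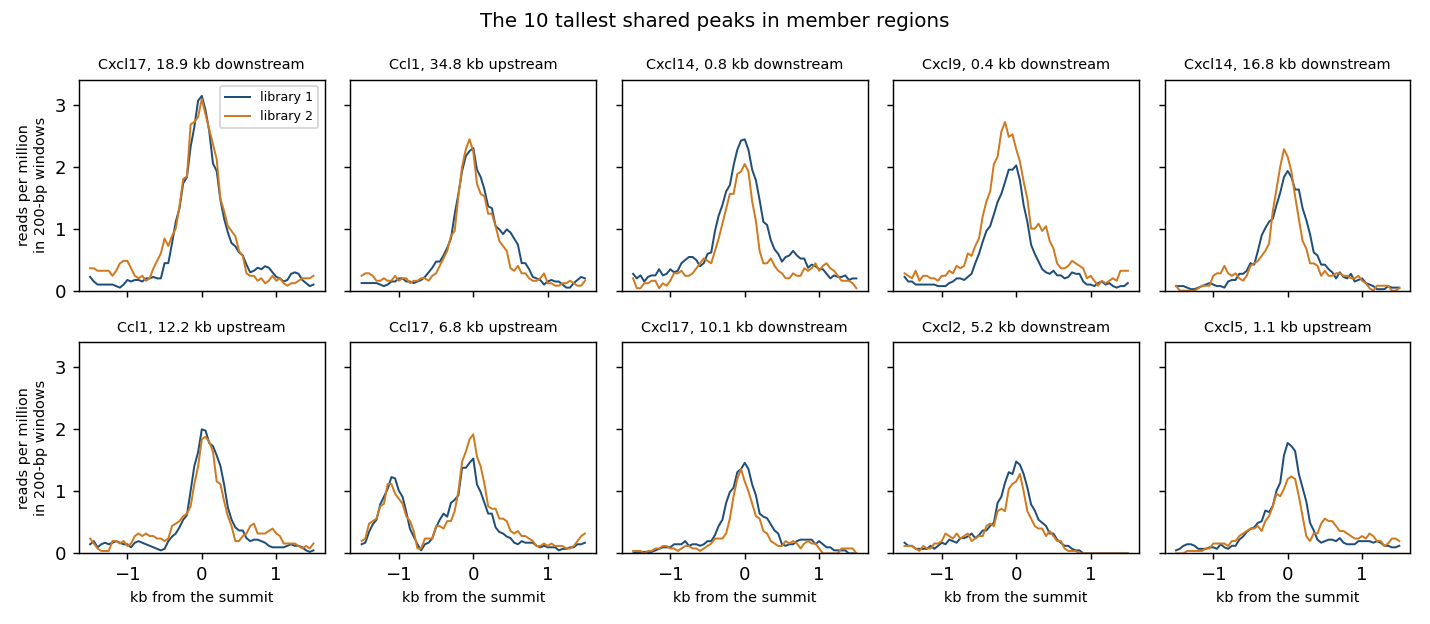
RPM in 200-bp windows within 1.5 kb of the summit for the 10 tallest member peaks, library 1 in blue and library 2 in orange. Both libraries rise at the same place in each panel, and the 7.9-kb summit of *Ccl17* appears as a second rise to the left of the 6.8-kb one.

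Some features were common to the 22 member peaks. None of the summits lay in an exon, 9 lay within a member's annotated gene body (4 of them in the long *Ccl1* transcript), and for 18 the nearest annotated start of a protein-coding gene was that of a member. Among these 18, the 4 in the long *Ccl1* transcript were 66.6 to 91.4 kb from that start, of *Ccl8* or of this transcript. The remaining summits were nearest to *Lipe*, for a pair of summits, *Sdad1* and *Art3*. The median width of the member peaks was 700 bp, against 600 bp over all shared peaks. The Gata3 motif was found within 100 bp of 14 of the 22 summits (63.6%, exact binomial interval 40.7 to 82.8%), beside 71% of all shared summits and 37.8% of all windows of 201 bases tiled over the genome. The interval takes the summits as independent, although several lie at the same gene, and the difference from 71% was not tested. The AP-1 motif was found at 4 of the 22 (18.2%), beside 12.3% of all shared summits and 3.12% of the windows, and each of these 4 also had a Gata3 motif. Both motifs were found at 8.22% of all shared summits. At 8 summits (*Cxcl17* at 18.9 kb, *Ccl1* at 12.2 kb, *Ccl17* at 6.8 kb, *Xcl1*, *Cxcl9* at 15.5 and 8.92 kb, *Cxcl2* at 0.971 kb and *Cxcl16*) neither motif was found, beside 24.9% of all shared summits. A motif match is a description of the sequence and no match says only that these letters were not in the window.

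The heights were compared between the libraries. At 0 of the 22 member summits did the libraries differ in their share of the reads (two-sided exact binomial test at the library 1 summit, q of 0.05 over all shared peaks), beside 1.94% of all shared peaks. Without adjustment 2 of the 22 had a p below 0.05, *Cxcl9* at 15.5 kb (exact p = 0.0058, q = 0.11) and *Cxcl16* (exact p = 0.025, q = 0.21). Both were lower in library 2, with a ratio of RPM of 0.509 and 0.531 at the library 1 summit. At that window the median ratio of library 2 to library 1 was 0.919 over the member peaks and 0.811 over all shared peaks. The ratio was below 1 at 14 of the 22 and at 73% of all shared peaks. The window was chosen as the fullest of library 1, which by itself favours ratios below 1. In the deposited read names the instrument identifier of library 1 differs from that of library 2, and library and instrument cannot be told apart.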

How the data were processed

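TH2 cells were profiled by Gata3 ChIP-seq in 2 libraries. The authors deposited 1 line per aligned read on GRCm38 with position, strand and a mapping quality score (22 to 44, at 44 for 99.5% and 99.4% of reads), keeping reads placed at 1 position. The submitters' processing notes name Bowtie2 2.3.5.1 and MACS2 2.1.2. The deposited lines hold no 2 reads of a library with the same 5′ end and strand, which limits how high a peak can rise. All reads on chromosomes 1 to 19, X and Y were used. Each was moved 100 bp in its 3′ direction, and windows of 200 bp were counted at steps of 50 bp. Called windows within 100 bp were joined. As summit the centre of the fullest window was taken, and library 2 was read at its own summit except in the test between libraries. Neighbouring windows overlap, so their tests are not independent. P-values compare a window with its own library and measure no spread between mice. Copies were counted for 50-base stretches taken every 25 bases.

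All members were named, those with a shared peak with their reads in both libraries. Clusters were runs of members with at most 250 kb between neighbouring gene bodies. The members, lists and tests were chosen with earlier results of these data known. Values of some single genes are left out. Alternatives were 2 stricter thresholds, other windows, a score of at least 30, thinning of library 1, another definition of shared, each library alone, other flanks, start windows and motifs, and, chosen after seeing the data, gene models from coding transcripts. Python 3.11.15, NumPy 2.4.6, SciPy 1.17.1, pandas 2.3.3, statsmodels 0.14.6, numba 0.67.0 and Matplotlib 3.10.9 were used.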

Additional observations from a re-analysis of the deposited data

How the results depend on the processing

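The 4 counts were 14 members with a shared peak, 22 shared peaks, 6 members within 2 kb of the start and 10 within 10 kb. At a q of 1e-10 they were 7, 10, 3 and 5, with 15.3%, 2.77% and 7.54% of all genes in the 3 counts of members. At 5-fold in both libraries they were 8, 11, 3 and 4, with 18.3%, 2.66% and 8.38% of all genes. At these thresholds the 3 counts of members were each a larger share of the 37 members than of all genes, but they rest on few members. The region counts include *Ccl1* through summits in its long non-coding transcript. At 5-fold the region count also includes *Cxcl1* through the summit that it has in common with *Cxcl2*. The difference in share was not tested. In the main setting the member share was smaller in the region (37.8%, beside 45.7%) and within 10 kb (27%, beside 28.9%). Only within 2 kb was it larger (16.2%, beside 11.7%). With gene models from coding transcripts, 7 members had a shared peak within 2 kb and 11 within 10 kb, as *Ccl1* was added to both. The shares of all genes were not counted with these models. With each library alone the 4 counts ranged from 16 to 23, 24 to 38, 7 to 9 and 12 to 20, the higher values in the deeper library 1, where the shares of all genes were 74%, 28% and 58.9% (library 2: 49.5%, 13.1% and 32%). With no flank 6 members (29.4% of all genes) and 9 peaks were left, and within 1 kb of the start 3 members (7.39% of all genes). Windows of 400 and 100 bp, a score of at least 30, thinning, summits within 100 bp, coding transcripts and flanks of 5 and 20 kb kept every count they were run for within 1.5 times. Over 10 settings of the calling and the gene model, *Xcl1*, *Cxcl2*, *Cxcl9*, *Cxcl17*, *Ccl1* and *Cxcl14* kept a shared peak in all. For *Ccl1* this did not rest on the same peak throughout. The stricter thresholds were not run with coding transcripts, where only its summit at 1.99 kb stays. That summit (2.99 and 3.12 times the background, q of 2.9e-06 and 2.5e-03) is short of both thresholds. *Ccl20* was lost in 5 of the 10 settings and *Cxcl13* in 4. *Cxcl5*, *Cxcl10* and *Ccl28* were lost at both stricter thresholds, *Cxcl1* and *Cxcl16* at the q of 1e-10 alone and *Ccl17* at 5-fold alone. *Ccl5* was gained with 400-bp windows, with either library alone and with a 20-kb flank, which also gained *Ccl26* and *Ccl25*. Flanks were not among the 10 settings, and with 5 kb *Cxcl1*, *Cxcl10*, *Ccl17* and *Cxcl16* were lost.

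With AGATAA alone the motif share was 36.4%, beside 40.8% of all shared summits, and with each library alone 63.2% to 70.8%. In library 2 alone the 70.8% stood above the 63.9% of all its peaks, and in library 1 alone the 63.2% stood below 68.8%, as with shared peaks (63.6% and 71%). The median density was 0.507 RPM per kb, and 0.5 to 0.527 in single libraries. With library 2 read at its own summit, 0 member peaks and 0.441% of all shared peaks differed between the libraries. No paired analysis was possible because both libraries are of 1 condition. Where a member had no shared peak, weaker binding remains possible at this depth.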
